A study of Mus musculus with 2 samples.

Results

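Summits of anti-Nr4a2 peaks that fall deep inside very long genes are described here. Nr4a2 (Nurr1) is an orphan nuclear receptor and transcription factor. The cells were BV2, a mouse microglia line made immortal in culture, and chromatin immunoprecipitation with sequencing gave 1 library of the anti-Nr4a2 precipitate and 1 of input chromatin. The file header tags both libraries H2O2, whereas the labels name no treatment, dose or time. BV2 is 1 cell line, and a list of peaks holds no expression values against which its microglial identity could be checked. The members are the peaks on chromosomes 1 to 19 whose summit, the base of highest coverage, lies inside a protein-coding RefSeq gene record (mm10, GRCm38) of 300 kb or longer and more than 1000 bp from both of its ends. There were 649 of them among 6996 summits on these chromosomes and 7680 peaks in all. With no replicate of either library, no value below measures variation between cultures, and every interval is a 95% interval for counting error only.

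Genes of this length consist almost entirely of intron. In mammals many of them encode adhesion molecules, ion channels and synaptic scaffolds of neurons, and several span common fragile sites, regions that break when replication is impaired. NR4A receptors are known to bind as monomers to a site called NBRE, an extended version of the hexamer shared by many nuclear receptors. The counts below compare summits inside long genes with those on the chromosome around them.

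Few summits of the set lay near annotated starts or ends of genes. Within 1000 bp of either end of any RefSeq record other than pseudogenes there were 9. The RefSeq promoter table placed 866 starts inside these genes, of which 277 belonged to the long gene itself. It has no entry for 128 of the 533 long genes, and the sequence within 1000 bp of the listed starts is only 1.56 Mb. Of the 649 summits, 3 lay within 1000 bp of such a start, which is 1.92 per Mb of that sequence (0.396 to 5.61) and not distinguishable from the rest of the long genes at this depth. Those summits were 77 bp upstream of a start of Zfhx3, which encodes a large homeodomain and zinc-finger transcription factor, 868 bp upstream of a start of Stard13 and 856 bp downstream of a start of the predicted gene Gm32639 inside Adgrv1. Only the peak in Zfhx3 overlapped the window of 250 bases before to 50 after the start. Its summit had 12 tags, a deposited fold of 3.50 and 1.39 on the −log10 q scale, and it lay 435 kb from the 5′ end of the gene record. Deposited folds carry a pseudocount of 1 on the tags and on the local background, so they are smaller than the plain ratio. The window is shown because it is the one listed promoter in the set that a peak covers. It lies at chr8:108714394-108714693 on the plus strand of GRCm38.p6, is credited to RefSeq, and its capitals mark the bases that the peak covers.
Zfhx3: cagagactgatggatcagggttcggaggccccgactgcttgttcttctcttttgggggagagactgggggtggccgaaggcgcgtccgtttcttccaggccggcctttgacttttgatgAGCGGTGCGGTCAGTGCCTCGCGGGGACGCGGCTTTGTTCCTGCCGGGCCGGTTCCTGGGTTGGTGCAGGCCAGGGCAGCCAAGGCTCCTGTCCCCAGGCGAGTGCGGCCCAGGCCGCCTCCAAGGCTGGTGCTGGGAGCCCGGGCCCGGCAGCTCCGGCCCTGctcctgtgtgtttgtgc
This window is 67.3% G and C, against a median of 52.7% and an upper quartile of 61.7% over all 32851 windows of the table, and it holds 21 CG dinucleotides. Neither the NBRE (AAAGGTCA) nor the hexamer within it (AGGTCA) occurs in it on either strand. Of all windows of this length, 1.51% hold the NBRE and 16.3% the hexamer.

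Long genes held fewer summits than their neighbourhood. The 533 genes ran from 300.2 kb to 2271 kb in length, with a median of 451 kb, and together covered 12.3% of the annotated span of chromosomes 1 to 19. They held 9.28% of its summits (8.61 to 9.98). That is 2.16 summits per Mb inside long genes and 2.96 per Mb elsewhere. Because summits are spread very unevenly over chromosomes, each gene was also compared with its own surrounding 5 Mb, the 2.5 Mb on each side of the record. At those local densities 820.4 summits were expected in the genes and 655 were observed. The 655 exceed the 649 members because 3 summits lay in 3 overlapping records each, the predicted genes Gm37013, Gm38666 and Gm38667 on chromosome 18, and were counted in every one. The ratio of observed to expected was 0.798 (0.738 to 0.862). Coding genes of 100 to 300 kb had a ratio of 1.16 (1.09 to 1.23), and the ratio of the first to the second was 0.688 (0.623 to 0.760).

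The shortfall was larger in longer genes. In the classes below the length limit the ratio was 1.08 (0.989 to 1.17) at 20 to 50 kb, 1.09 (1.01 to 1.18) at 50 to 100 kb, 1.14 (1.05 to 1.23) at 100 to 200 kb and 1.20 (1.08 to 1.33) at 200 to 300 kb. Just above the limit, the 195 genes of 300 to 400 kb had a ratio of 0.920 (0.792 to 1.06). It was 0.791 (0.657 to 0.943) at 400 to 500 kb, 0.873 (0.737 to 1.03) at 500 to 700 kb and 0.750 (0.613 to 0.909) at 700 to 1000 kb. The 55 genes of 1000 kb or longer held 101 summits against 162.4 expected, a ratio of 0.622 (0.507 to 0.756). Neighbouring classes above the limit overlapped in their intervals, while the interval of the longest class lay below that of the class of 300 to 400 kb without overlap. The surroundings of longer genes were themselves somewhat poorer, with 2.99 summits per Mb around the genes of 300 to 400 kb and 2.27 around those of 1000 kb or longer.

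**Figure D1:**
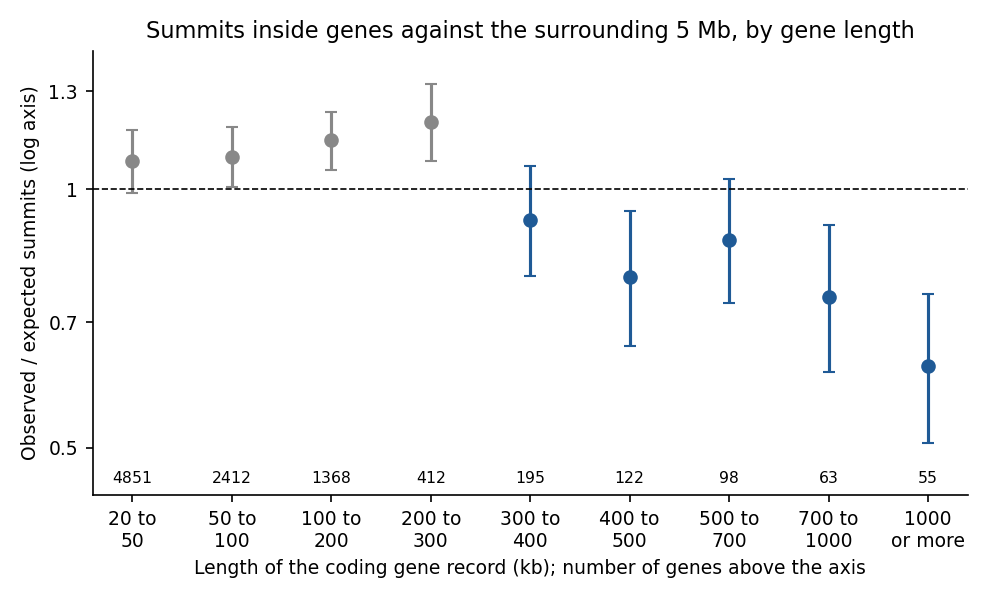
Ratio of observed summits inside coding genes to the number expected at the density of the surrounding 5 Mb (log axis), by length of the gene record; bars are exact Poisson 95% intervals on the observed count and blue marks genes of 300 kb or longer. The ratio is 1.20 at 200 to 300 kb and 0.622 at 1000 kb or longer.

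What the genes were compared with moved the size of the shortfall but not its direction. Against the bodies of other coding genes within the surrounding 5 Mb the ratio was 0.720 (0.666 to 0.778), and against sequence outside every coding gene it was 0.889 (0.823 to 0.960). Other long genes nearby were among those coding gene bodies. Counts are per base of the assembly, and the part that sequence inaccessible to alignment plays in them was not tested.

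Genes in summit-rich neighbourhoods held more summits. Density inside a gene and density in its surroundings had a Spearman correlation of 0.631 over the 533 genes, given as a description, since both come from the same list and neighbouring genes share surroundings. The surroundings ranged from 0 to 12.3 summits per Mb, with a median of 2.2. In surroundings with more than 0 and up to 1 summit per Mb, 22 of 140 genes held a summit and the ratio was 0.594 (0.384 to 0.876). In surroundings above 6 per Mb, 64 of 70 genes held one and the ratio was 0.883 (0.776 to 1.0). Another 31 genes had no summit in their surroundings, and 27 of these had none inside either.

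By chromosome the ratio was below 1 on 14 of the 19 chromosomes and above 1 on chromosomes 3, 6, 12, 13 and 18. On chromosome 12 all 22 long genes held a summit, with 101 summits against 83.4 expected, a ratio of 1.21 (0.987 to 1.47). Chromosome 18 had a ratio of 1.55 (0.970 to 2.34), which was 1.40 (0.800 to 2.27) with the overlapping records counted once. On chromosome 1 there were 86 against 124.1 expected, or 0.693 times (0.555 to 0.856). Chromosome 8 held 58 against 87.7, or 0.662 times (0.502 to 0.855). Chromosome 10 held 1 summit in 31 long genes, and chromosome 7 held 3 in 23. Leaving out any one chromosome kept the ratio between 0.752, without chromosome 12, and 0.817, without chromosome 1.

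The number of summits differed widely between genes, which also differ in length and in the density of their surroundings. How uneven these counts would be from length and surroundings alone was not tested. Of the 533 genes, 262 held none, 125 held 1, 113 held 2 to 4 and 33 held 5 or more, and these 33 accounted for 218 of the 655. The largest number was 14, in Nrxn3, a presynaptic adhesion gene of 1612 kb on chromosome 12 at 88722701 to 90334935. Its density of 8.69 per Mb was close to the 8.60 per Mb around it, a ratio of 1.01 (0.511 to 1.88). The 14 summits began 10.2 kb from its 5′ end and ended at 1576 kb, and their folds ran from 2.69 to 4.67 with 7 to 13 tags. Ptprn2, which encodes a receptor-type phosphatase-like protein of secretory granules, followed with 12 summits in 792 kb on chromosome 12 and a ratio of 1.27 (0.619 to 2.38). Neither gene differed from its surroundings beyond counting error.

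Other genes with many summits were shorter and denser. Dnah11, an axonemal dynein heavy chain gene of 321 kb, had 8 summits and the highest density of the named genes, 25.1 per Mb, in surroundings of 12.3 per Mb. Gphn, which encodes the scaffold gephyrin of inhibitory synapses, had 8 summits and a ratio of 2.46 (0.984 to 5.39). Akap6, an anchoring protein gene for protein kinase A, had 7 and a ratio of 2.65 (0.981 to 6.19). Stard13, a GTPase-activating protein gene, and Dnm3, a dynamin gene, had 7 each, with ratios of 2.38 (0.854 to 5.81) and 1.86 (0.703 to 4.23). The intervals of these 5 genes all included 1, although 4 of them lay above 1 under another setting: Gphn and Akap6 with 5 Mb on each side, Akap6 and Stard13 with 0.5 Mb, and Dnm3 with the q limit of 0.05 or with a minimum fold of 4. Among genes of about 1 Mb or more, Fhit, Tenm3, Asic2 and Immp2l had 7 each and Pde4d had 6, with ratios from 0.923 at Pde4d to 1.64 at Immp2l. Fhit encodes a nucleotide hydrolase at a fragile site, Tenm3 a teneurin adhesion molecule, Asic2 an acid-sensing channel, Immp2l a mitochondrial peptidase and Pde4d a cyclic AMP phosphodiesterase.

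**Figure D2:**
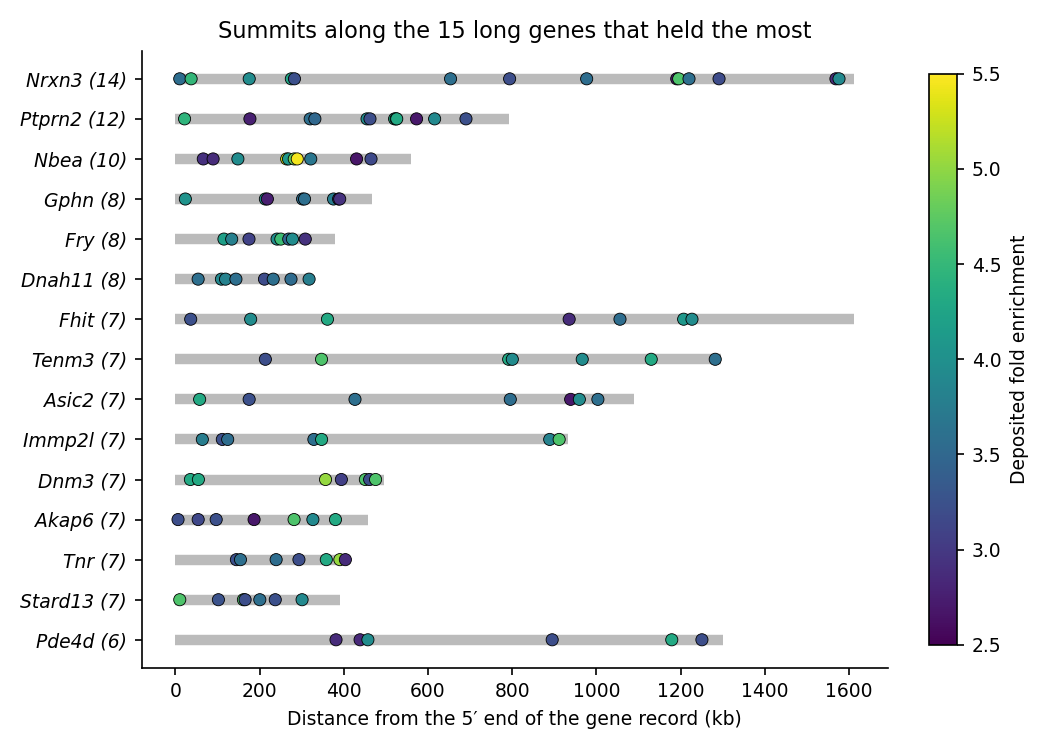
Summits (points) along the 15 long genes that held the most, with distance in kb from the 5′ end of each gene record (grey bar) and colour for the deposited fold enrichment; the number of summits follows each name. Summits are spread along whole records, with runs of close summits in Nbea, Ptprn2 and Fry.

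Gene by gene, few differences from the surroundings exceeded counting error. Of 506 genes with a summit inside or around them, 8 had an interval above 1 and 3 an interval below 1, which is 1.58% and 0.593%. Over all coding genes of 100 kb or longer these shares were 1.7% and 0.134%, and over those of 100 to 300 kb 1.74% and 0%. An interval below 1 needs several expected summits, which genes of 100 to 300 kb rarely have, so the shares below 1 cannot be compared. The share above 1 was thus near the background, and a 95% interval computed gene by gene lies above or below the true ratio in some genes by construction. These 11 genes are therefore described and not set apart. Ratios were above 1 in 145 genes and below 1 in 361. Every gene without a summit but with summits around it counts as below 1, however few were expected in it. The split therefore does not measure depletion gene by gene.

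Nbea encodes neurobeachin, a vesicle trafficking protein, and held 10 summits in 559 kb on chromosome 3 at 55625195 to 56183748, against 3.67 expected (ratio 2.72, 1.20 to 5.66). From the 5′ end, its summits stood at 66.1, 89.4, 148, 264, 269, 282, 289, 321, 430 and 465 kb. Their folds in that order were 2.92, 2.87, 3.95, 5.30, 4.10, 4.83, 5.45, 3.68, 2.67 and 3.17. The 4 summits between 264 and 289 kb lay within 25.1 kb of each other and included the highest, at 55894235 to 55894491 with 19 tags and a −log10 q of 4.64. Fry, the mouse furry homologue, held 8 summits in 379 kb on chromosome 5 at 150118618 to 150497753, against 2.44 expected (ratio 3.27, 1.27 to 7.53). Its folds ran from 2.93 to 4.56, all 8 summits stood between 115 and 308 kb from the 5′ end, and 4 of them lay within 36.5 kb.

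Thrb encodes thyroid hormone receptor beta, a nuclear receptor, and held 5 summits in 381 kb on chromosome 14 at 17659225 to 18040097, against 0.985 expected (ratio 5.08, 1.42 to 15.2). They stood at 42.7, 106, 172, 212 and 360 kb from the 5′ end with folds of 3.23, 4.27, 3.59, 4.31 and 4.31. Tnr, the gene of the brain matrix protein tenascin-R, held 7 summits with folds of 2.87 to 5.02 (ratio 2.78, 1.03 to 6.44). Cntnap4, a contactin-associated adhesion gene, held 5 with folds of 2.87 to 4.67 (ratio 4.23, 1.24 to 11.7). Nbas, a Golgi-to-endoplasmic-reticulum transport gene, and Ldlrad4, a transmembrane gene known to dampen TGF-β signalling, held 3 each in sparse surroundings, with 4 and 6 summits around them. Cntnap2, at 2241 kb the second longest gene, held 4 summits on chromosome 6 with none in its surroundings. Its density was 2.98 times the limit that 0 summits allow, 3 counts in 5 Mb, with the 4 summits taken as exact. The 95% interval of the ratio of Cntnap2 to its surroundings, which also covers the counting error of the 4, began at 1.47. Its summits stood at 1083, 1211, 2081 and 2150 kb from the 5′ end with folds of 3.95, 2.96, 3.20 and 3.95.

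The genes with an interval below 1 were all near 1 Mb in length, and shorter genes seldom had enough expected summits for such an interval. Cdh13, the gene of T-cadherin, held 1 summit of 2.87-fold and 7 tags in 1185 kb, against 8.52 expected (ratio 0.117, 0.00289 to 0.697). Thsd7b, a thrombospondin-domain gene, held 1 of 4.98-fold and 13 tags against 6.42 expected (ratio 0.156, 0.00383 to 0.929). Pard3b, a cell polarity gene, held 0 against 4.81 expected, with an upper limit of 0.829 for the ratio. The longest gene, Ptprd, a receptor phosphatase and synaptic organiser of 2271 kb, held 0 against 3.63 expected. Lsamp, Lrp1b and Macrod2, each about 2 Mb long, held 1, 2 and 1 against 4.39, 6.58 and 3.19 expected. Their intervals, and that of Ptprd, reached above 1. The absence of summits from Dlg2 and Csmd1 (synaptic scaffold and complement-domain genes), Ctnna3 and Pcdh15 (a catenin and a protocadherin gene) and Naaladl2 could not be told from sparse surroundings, where fewer than 1 was expected in each. Agbl4, a tubulin deglutamylase gene, held 0 against 4.05 expected. The surroundings of Cntn5, Lingo2 and Nkain2 held no summit at all.

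**Figure D3:**
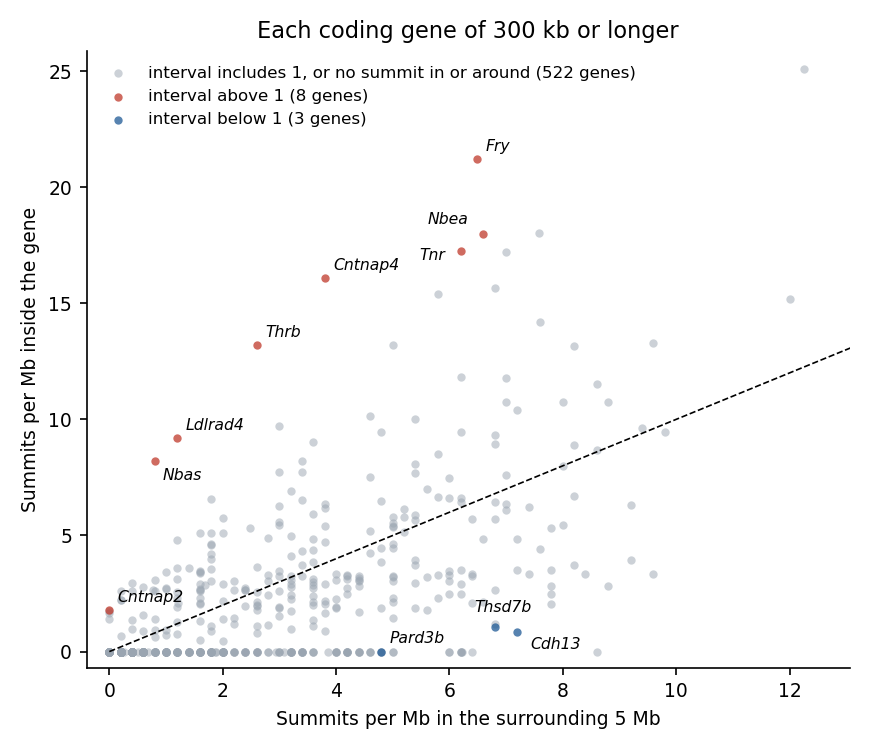
Summits per Mb inside each of the 533 coding genes of 300 kb or longer (vertical) against summits per Mb in the surrounding 5 Mb (horizontal), with the line of equal density dashed. Red marks the 8 genes whose ratio has a 95% interval above 1 and blue the 3 with an interval below 1; Dnah11 is the uppermost point, at 25.1 per Mb.

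Position along the gene made no visible difference. The promoter table gave a strand for 405 of the genes, with 507 summits. Of these, 248 (48.9%, 44.5 to 53.4) lay on the 5′ side of the middle of the gene and 259 on the 3′ side. In 10 bins of equal length, counts from 5′ to 3′ were 51, 51, 40, 52, 54, 54, 49, 55, 50 and 51, and every bin had an interval that included the mean of 2.2 per Mb. Over all 533 genes, in 5 bins from the nearer end to the middle, the outermost held 131 summits and the innermost 140.

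Distance in kb showed no step within 25 kb of the gene ends either. Between 1 and 25 kb from the 5′ end there were 25 summits inside the genes and 28 outside, and at the 3′ end 23 and 23. Relative to the surrounding 5 Mb, the stretch from 50 to 100 kb inside the 5′ end had a ratio of 0.788 (0.577 to 1.05) and the same stretch outside it 0.822 (0.606 to 1.09). At the 3′ end the stretch from 50 to 100 kb inside was low, at 0.651 (0.461 to 0.894), and that outside was 0.994 (0.755 to 1.28). These intervals overlapped. In the end regions left out of the set by its rule, 9 of the 533 genes (1.69%) had a summit within 1000 bp of an end. These regions are short and no expected number was computed for them. The count therefore does not show whether gene ends were poor or rich in summits.

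**Figure D4:**
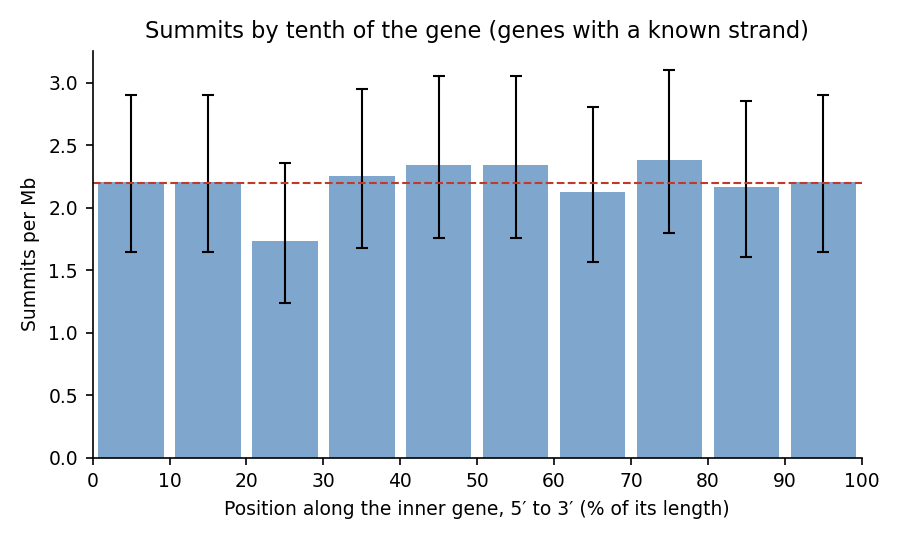
Summits per Mb in 10 bins of equal length along the inner gene, from the 5′ to the 3′ end, over the 405 genes with a known strand; error bars are exact Poisson 95% intervals and the dashed line is the mean of 2.2 per Mb. The lowest bin, at 1.73 per Mb, still has an interval that reaches the mean.

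By their medians, the peaks inside long genes were as weak as those elsewhere. Their median fold enrichment was 3.68 and their median pileup 10 tags, against 3.59 and 10 for the 6347 other summits on these chromosomes. A q of at most 0.05 was reached by 334 of them (51.5%, 47.5 to 55.4), against a background of 50.6% of all summits on chromosomes 1 to 19. A q of at most 0.001 was reached by 17 (2.62%, background 2.42%) and a fold of 5 or more by 25 (3.85%, background 3.74%). The median width was 184 bp, against 190 bp elsewhere. The local background differed more. It was the genome-wide minimum of 1.79 tags in 363 of the 649 (55.9%, 52.0 to 59.8), against 47.9% (46.7 to 49.1) of the other summits and 43.6% (41.6 to 45.6) of the 2366 summits inside shorter coding genes. The tallest peaks lay elsewhere, as the highest pileup was 22 tags inside long genes and 328 among the other summits. At least 14 tags were found in 27 members (4.16%, 2.76 to 5.995), against 5.53% (4.98 to 6.12) of the other summits, with overlapping intervals.

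The highest folds belonged to genes of diverse function. The highest fold was in Hdac9, a class IIa histone deacetylase gene, on chromosome 12 at 34746907 to 34747076, with 15 tags, a fold of 5.70 and a −log10 q of 3.93. By q, Nbea (4.64 on the −log10 scale), Maml3 (4.34) and Malrd1 (4.15) ranked above it. By fold it was followed by peaks in Dgkb, a diacylglycerol kinase gene (5.53-fold, 16 tags), in Csgalnact1, a chondroitin sulphate synthesis gene (5.46-fold, 15 tags), and in Nbea (5.45-fold). The next 6 shared a fold of 5.38 with 14 tags. They lay in Pkhd1, the gene of fibrocystin, Dip2c, Aopep, an aminopeptidase gene, Mast4, a kinase gene, Baz2b, a bromodomain gene, and Fto, an RNA demethylase gene. The peak in Aopep was also the widest inside a long gene, at 560 bp. Pkhd1 and Csgalnact1 each held further peaks, 3 in all at 4.98-fold or more in Pkhd1 and 5 at 3.83-fold or more in Csgalnact1.

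Runs of close summits were few. The median distance from a summit inside a long gene to the nearest other summit was 85.8 kb, against 70.4 kb for the others. A neighbour within 10 kb was found for 80 of 649 (12.3%, 9.90 to 15.1), against 11.3% (10.6 to 12.1) elsewhere. Within a stretch of 50 kb, 2 genes held 4 summits (Nbea and Fry) and 17 held 3. Among the latter were Ptprn2, with 3 summits in 5.07 kb, Dock4, a Rac activator gene, with 3 in 11.8 kb, and Zfhx3, with 3 in 13.4 kb that include the one at its internal start. In Maml3, a Notch coactivator gene, 3 summits in 14.5 kb had 14 to 22 tags, the highest tag number in the set, but folds of only 2.91 to 4.74. The genes of this paragraph were chosen after their values were seen.

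By function, 407 of the 533 genes fell into 12 lists, and 49 of them into more than 1. Over all long genes 50.8% held a summit, the median ratio of single genes was 0.337 and the pooled ratio 0.798. Genes without a summit pull this median and the medians of the lists down, also where few summits were expected. The medians are therefore not measures of depletion. The 62 genes of neurexins, contactins and other adhesion or guidance molecules of neurons had 71 summits, in 31 genes, a pooled ratio of 0.746 (0.582 to 0.941) and a median of 0.351. Nrxn3 (14), Tenm3 (7), Sdk1 (5), a sidekick adhesion gene, and Cntnap4 (5) led it. In 8 members, Opcml, Cntn4 and Nlgn1 among them, there was no summit inside or around the gene. In the cadherin and catenin list 6 of 13 genes held 17 summits (0.607, 0.354 to 0.972, median 0.117), led by Ctnnd2 (6), the gene of delta-catenin, and Cdh18 (5), and the other 2 named by rank, Cdh4 and Cdh8, held 2 each. Neurotransmitter receptor genes had the lowest density of the lists, 10 summits in 20 genes or 0.769 per Mb (0.369 to 1.41), with a ratio of 0.565 (0.271 to 1.04), and 6 of the genes held them all (median 0). Of these summits, 4 lay in Galntl6, a glycosyltransferase-like gene that is no receptor. Among the receptor genes, Grik4, a kainate receptor gene, held 2 and Grid1, a glutamate receptor gene, held 1.

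Synaptic scaffold and vesicle release genes had 58 summits in 20 of 39 genes (0.785, 0.596 to 1.01, median 0.284), led by Nbea (10), Ctnnd2, Vps13b and Lrba (6 each). Ion channel and transporter genes had 57 in 28 of 47 (0.755, 0.572 to 0.978, median 0.473), led by Asic2 (7), Fstl5 (6), which encodes a secreted follistatin-like protein and no channel, Kcnh1 (5), a potassium channel gene, and Slc2a13 (4), an inositol transporter gene. Phosphodiesterase, kinase and phosphatase genes had 52 in 19 of 39 (0.803, 0.600 to 1.05, median 0.437), led by Pde4d and Inpp4b (6 each) and Dgkb (5). GTPase regulator and cytoskeleton genes had 65 in 26 of 52 (0.888, 0.685 to 1.13, median 0), led by Gphn and Dnah11 (8 each), Sntg1, a syntrophin gene, and Arhgap24 (4 each). Gphn, a synaptic scaffold gene, was counted here and not among the synaptic scaffolds.

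Transcription factor and chromatin genes had 69 summits in 26 of 57 genes (0.771, 0.600 to 0.975, median 0). Thrb (5), Npas3, Zfhx3 and Zfpm2 (4 each) led the list. Among its nuclear receptor genes, picked out after their values were seen, Rarb and Esrrg held 2 each, Rora and Nr3c2 1 each and Esr1 none. RNA-binding genes had 10 summits in 5 of 8 genes (0.731, 0.351 to 1.34, median 0.644), 5 of them in Rbfox1, a splicing factor gene, with 2 in Adarb2 and 1 each in Khdrbs2, Msi2 and Fto. The mixed list of fragile-site, metabolic and glycosylation genes had 97 summits in 37 of 57 genes (0.720, 0.584 to 0.878, median 0.546), led by Ptprn2 (12), Fhit, Immp2l and Stard13 (7 each). Ptprn2, a phosphatase-like gene, and Stard13, a GTPase-activating protein gene, were counted in this list and in no other. Extracellular matrix and secreted protein genes had the lowest ratio of the lists, 29 summits in 16 of 36 genes or 0.501 (0.336 to 0.720, median 0), and without Tnr it was 0.398. Its next members were Hmcn1 (4), the gene of hemicentin, Slit3 (3), a guidance factor gene, and Hpse2 (2), a heparanase-like gene.

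Genes expressed in immune cells and microglia were the 1 list of the 12 with a pooled ratio above 1. In 26 genes there were 42 summits, 16 genes held at least 1, the median was 0.767 and the ratio was 1.08 (0.781 to 1.46), with an interval that also includes the 0.798 of all long genes. Inpp4b, an inositol phosphatase gene, and Lrba, a BEACH-domain gene needed for immune regulation, held 6 each, and Elmo1, a phagocytosis and Rac activation gene, and Dennd1a, an endocytic exchange factor gene, held 4 each. Their ratios were 1.08 (0.373 to 2.61), 1.54 (0.529 to 3.70), 2.58 (0.624 to 8.11) and 2.42 (0.592 to 7.42). The members without a summit included Foxp1, Bach2, Celf2, Arhgap15 and Prkcb, of which Bach2 and Celf2 also had none around them. The 126 genes in no list had a ratio of 0.943 (0.797 to 1.11). Differences between lists were not tested.

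**Figure D5:**
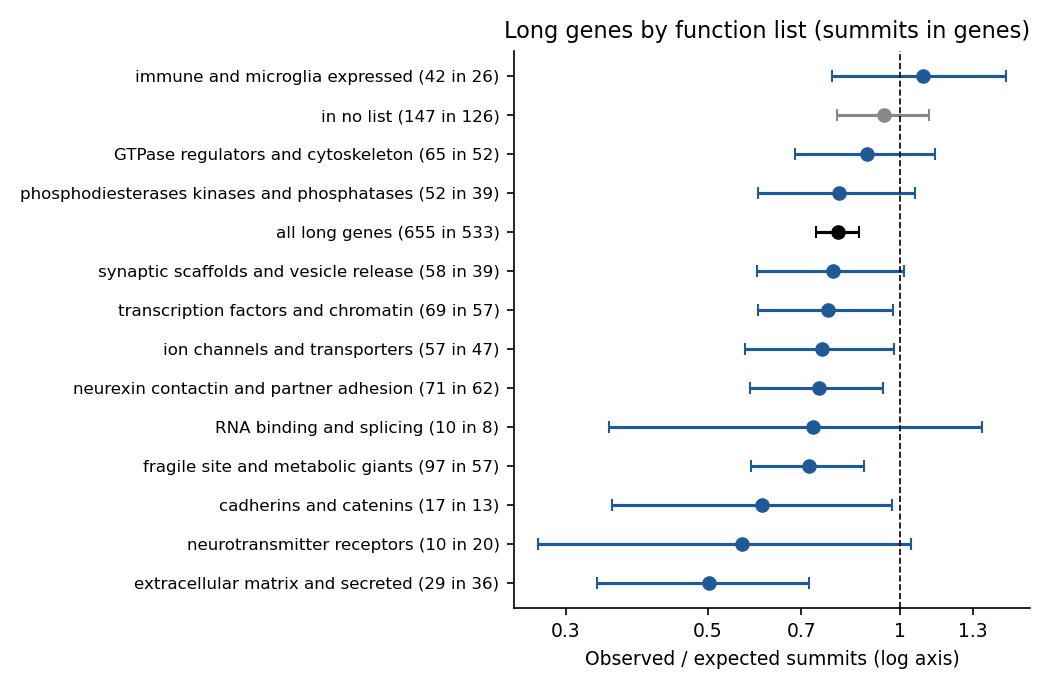
Ratio of observed to expected summits (log axis) for the long genes of each function list, with exact Poisson 95% intervals; the number of summits and of genes follows each name, black marks all 533 genes and grey those in no list. The ratios run from 0.501 for extracellular matrix and secreted proteins to 1.08 for genes expressed in immune cells and microglia.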

How the data were processed

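The submitters' processing notes list Bowtie2, MACS2 2.2.6, ChIPseeker and the mm10 build, while the file header names MACS 2.1.4. Peaks were called on the 1 ChIP library (20365794 tags kept) against the 1 input (22520884 kept) with a cutoff of 0.001, per the file headers. The deposited pileup is a coverage signal of extended tags, the deposited fold is a ratio of that pileup to the local background with a pseudocount of 1 added to each, and the deposited −log10 p-value and q-value columns are the authors' own; positions and widths are the deposited values in bp. The q column was used although the header announces no q calculation.

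Genes came from RefSeq records on GRCm38.p6, without exons. Expected counts are the sum over genes of inner length times the density in the 2.5 Mb on each side, clipped to the annotated span of the chromosome. Ratios carry exact Poisson intervals with the expected number taken as fixed (for single genes and for the ratio of gene classes, exact conditional binomial intervals); shares carry exact Clopper-Pearson intervals. There are no p-values, because there are no replicates. Strand came from the RefSeq promoter table, which covers 405 of 533 genes. Sequence that reads cannot be aligned to was not accounted for. Counting was tested on simulated summits spread evenly along each chromosome, with other long genes left out of the surroundings. The main ratio keeps those genes in, and the real summits are spread unevenly. The tools were Python 3.11.15, NumPy 2.4.6, pandas 2.3.3 and SciPy 1.17.1.

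Members and lists were chosen with earlier results of these data known. Named genes are the 15 with the most summits (ties by length), those with an interval off 1, the genes of the 10 highest folds, the 10 longest, the 10 longest without a summit and up to 4 per list; a few genes that this rule names are not reported here.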

Additional observations from a re-analysis of the deposited data

Results flagged for a closer look

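The rule left out chromosome X, where 57 summits lay inside 19 of 24 coding genes of 300 kb or longer. Their density was 3.80 per Mb (2.88 to 4.92), against 3.82 per Mb over the whole chromosome. Dmd, the dystrophin gene, held 9, and Il1rapl1, Il1rapl2 and Arhgap6 held 6 each.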

How the results depend on the processing

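The pooled ratio of 0.798 stayed below 1 under every alternative run. It was 0.926 at a q of at most 0.001, where 17 summits remained, 0.907 with genes of 200 kb or longer, 0.720 against other coding gene bodies, 0.889 against sequence outside coding genes and, added after seeing the data, 0.622 with genes of 1000 kb or longer. The interval at the q limit reached above 1 (0.540 to 1.48), as fewer summits widen it by construction. The number of genes with an interval off 1 was 11 and became 5 at a q of at most 0.05, 7 with 0.5 Mb on each side, 15 with 5 Mb on each side and 2 at 4-fold or more (added later), so single genes depend on these settings. In that order, 2, 3, 7 and 1 of the 8 genes above 1 remained there, and 1, 0, 3 and 0 of the 3 below 1; with 5 Mb on each side 6 genes lay below 1. The share of summits inside long genes was 10.1% at a q of at most 0.001, against 9.28%. At a q of at most 0.05, added later, the list ratios moved outside their intervals to 0.329 for extracellular matrix, 0.207 for neurotransmitter receptors and 0.579 for phosphodiesterases, kinases and phosphatases. The cause of these shifts was not tested. The 58 remaining values, among them the count of 15, 0.794 with overlapping records counted once and those without each chromosome, stayed within the reported intervals or, for the count, within 1.5 times of it. No paired analysis was possible because there was 1 library of each kind. With a median pileup of 10 tags, depth limits every count.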
